A study of Mus musculus with 6 samples.

Results

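General capillary cells are the common capillary endothelial cells (ECs) of the lung alveolus. 7 genes that mark them, Plvap, Glp1r, Kit, Cd93, Sema3c, Clec1a and Hilpda, are described here in ECs sorted from mouse lungs with breast cancer metastases. Every probe set whose array annotation gave a member as its only gene symbol was taken, which gave 14 probe sets for the 7 genes, out of 34958 probe sets with 1 symbol for 18194 genes. The array held 45101 probe sets in all. Plvap, Glp1r and Hilpda had 1 probe set each, Kit, Sema3c and Clec1a had 2 each, and Cd93 had 5.

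In the alveolar capillary bed, a pair of endothelial cell types lie side by side. Aerocytes are large, thin cells next to the air spaces and serve gas exchange, whereas general capillary cells control vascular tone, handle circulating lipid and leukocytes, and act as progenitors that divide and replace lost capillary cells. Several of the 7 genes code for proteins at the cell surface through which this cell type exchanges material and signals with the blood and the tissue.

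ECs were profiled from lungs of NSG mice, an immunodeficient strain that accepts human cells. Mice were 6 to 8 weeks old and, per the study's methods, female. They received MDA-MB-231-LM2 cells, a lung-seeking human breast cancer line, by intravenous injection, and lungs were harvested on day 20, labelled as 3 weeks. The injected cells carried a control shRNA in the shControl group (3 arrays) and an shRNA against tenascin C (TNC), an extracellular matrix protein, in the shTNC group (3 arrays). All mice of both groups therefore bore cancer cells, and no group without cancer cells was analysed here. The paper reports that TNC knockdown lowered lung colonization by these cells, so that the groups may differ in metastatic load as well. No load of these samples was analysed here, and effects of TNC loss and of load cannot be told apart. ECs were sorted from whole lungs as CD31+ cells after exclusion of cells with CD45, CD11b, EpCAM, CD140a, CD140b or GFP, the last carried by the cancer cells. The arrays were labelled as biological replicates, and whether an array stands for 1 mouse or for pooled mice was not stated. P-values therefore measure the spread between these 3 samples a group. The shRNA acted in human cells that the sort removed, so that the mouse EC arrays hold no check of the knockdown.

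Values are the deposited log2 levels, and a difference is shTNC minus shControl on that scale, with the standard error (SE) from limma, a linear model that moderates the variance of each probe set with those of all others. A level was called near background when its mean over the 6 arrays lay under 7.48, the 95th percentile of 44 probe sets of olfactory receptor genes. Levels of different probe sets are not comparable, and a gene is represented by its brightest probe set where 1 value a gene is needed. Across the array, limma gave an adjusted p under 0.05 for 0 of 45101 probe sets (0%), with 0.126 as the smallest. Without adjustment, 3004 probe sets were higher in shTNC at p under 0.05 (6.66%) and 2842 were lower (6.3%). The study's looser thresholds were a log2 difference over 0.75 at p under 0.05, with adjusted p under 0.25. The paper set them for secreted protein genes raised in ECs of lungs with metastases. Applied here to shTNC against shControl in both directions, they were met by 82 probe sets (0.182%). On the first principal component, which held 36.6% of the variance, shControl replicate 2 lay apart at -43.6, with the other arrays between -11.1 and 21.1. All 10 pan-endothelial markers were above background, with a mean level of 13.35 to 13.42 in shControl and 13.33 to 13.36 in shTNC.

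All 7 genes were detected in every group, and their measured differences were small by the brightest probe set. In shControl, these probe sets had means of 11.97 (Hilpda) to 13.76 (Cd93), and the highest value on each array was 14.53. Whether differences were compressed near the top of the scale was not tested. The brightest probe set was higher in shTNC for 7 of the 7 genes, by 0.05 for Cd93 up to 0.28 for Hilpda on the log2 scale. The median difference was 0.13, beside -0.03 over the brightest probe sets of all 18194 genes, of which 7592 were higher. By limma's adjusted p, 0 of the 7 genes were called, and 0 met the study's thresholds. At an unadjusted p under 0.05, 1 gene (Hilpda) was higher and 0 were lower, beside 826 higher and 1295 lower of all 18194 genes. With an intensity trend and robust eBayes in limma's variance model, 4 were higher (Plvap, Sema3c, Clec1a and Hilpda). In that fit, 7.25% of all 45101 probe sets were higher, a share not limited to the brightest of each gene. Averaged over the 7 genes, the level was 12.97, 13.03 and 13.05 on the shControl arrays and 13.16, 13.16 and 13.14 on the shTNC arrays. This mean includes Kit and Cd93, whose probe sets pointed both ways. Among the lists below, it also stood higher in shTNC without overlap for other general capillary (13.34 to 13.38 and 13.41 to 13.42), arterial, and pericyte and smooth muscle markers. For cell cycle genes it stood lower without overlap. In sorted bulk samples, fewer cells of a type and less RNA per cell cannot be told apart. The levels of the 7 genes thus do not separate the number of general capillary cells from the amount of each transcript in them.

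**Figure D1:**
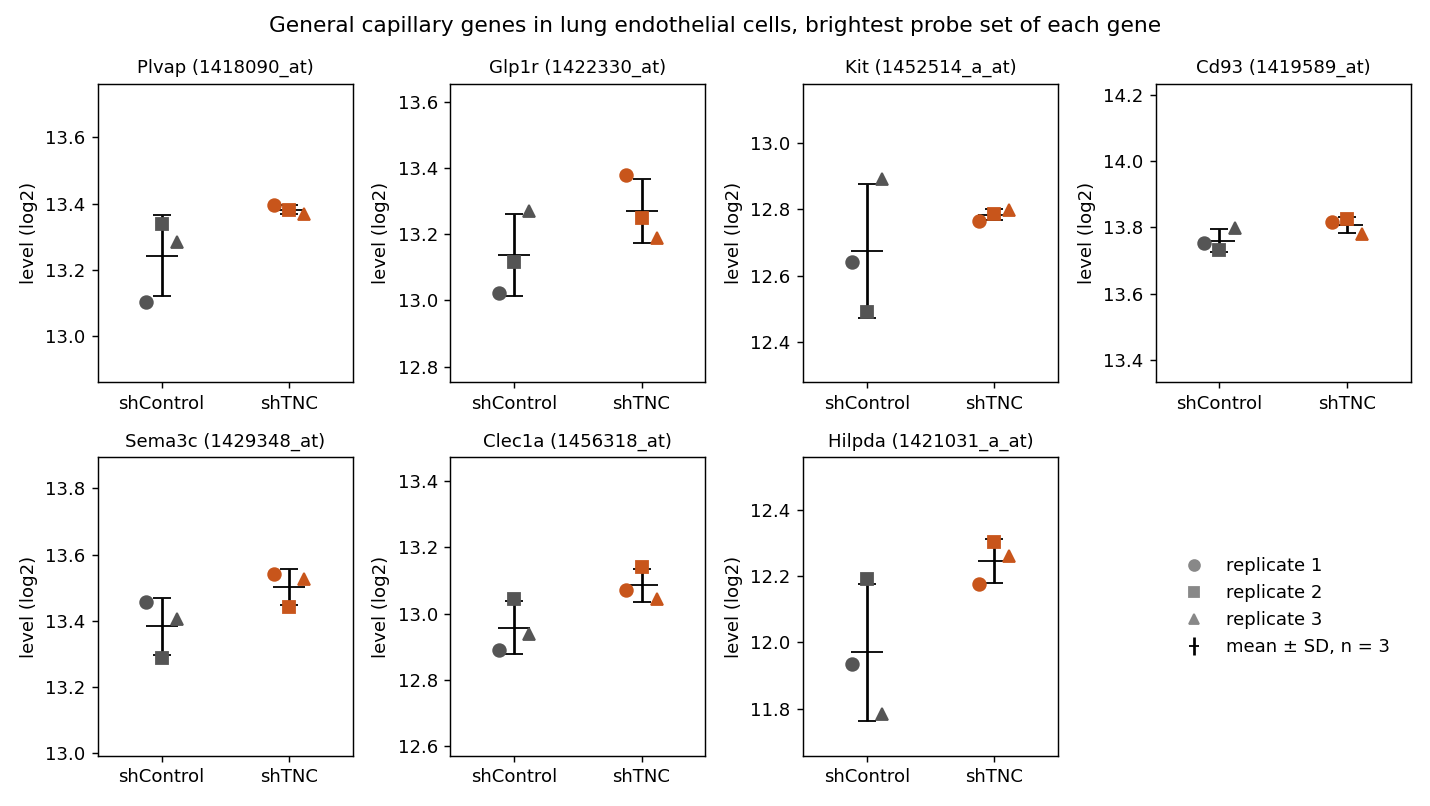
Level (log2) of the brightest probe set of each of the 7 general capillary genes on the 3 shControl (grey) and 3 shTNC (orange) arrays, with symbols for replicate numbers and bars for the mean ± SD (n = 3). Every panel spans the same log2 distance; the groups do not overlap for Plvap, and overlap for the other 6 genes.

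The genes of the capillary barrier and of vesicle traffic come first. Plvap, which forms the diaphragms that span endothelial fenestrae and caveolae, was measured at 13.10, 13.34 and 13.28 in shControl and at 13.40, 13.38 and 13.37 in shTNC. All 3 shTNC arrays lay above all 3 shControl arrays, and the shControl arrays were more widely spread. The means were 13.24 ± 0.12 and 13.38 ± 0.014 (SD, n = 3), a difference of 0.14 ± 0.09 (SE; 95% interval -0.07 to 0.35; limma adjusted p = 0.551). Plvap was the only 1 of the 7 brightest probe sets whose groups did not overlap. Over the array, 8.92% of probe sets were higher without overlap and 10.5% were lower without overlap.

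Of 6 genes of caveolae, the flask-shaped membrane pits in which Plvap sits, 4 were higher and 2 lower in shTNC, with a median difference of 0.06 and 0 past the adjusted p in limma. Cav1, the coat protein of caveolae, was measured at 13.30, 13.27 and 13.26 in shControl and 13.45, 13.50 and 13.49 in shTNC, a difference of 0.20 ± 0.08 (limma adjusted p = 0.348). Cavin2, which helps to shape the caveolar membrane, was higher by 0.26 ± 0.08 (limma adjusted p = 0.28), and its other probe sets were also higher, by 0.18 and 0.11, without overlap. Cavin3, a further cavin, had the opposite sign, at -0.39 ± 0.11 (limma adjusted p = 0.253), with all 3 shTNC arrays below the shControl arrays. The difference of Plvap thus lay between those of genes whose proteins share its compartment.

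Glp1r and Kit are receptors for circulating and local ligands. Glp1r, the receptor of the incretin hormone GLP-1 and in lung a gene of capillary ECs, was measured at 13.02, 13.12 and 13.27 in shControl and at 13.38, 13.25 and 13.19 in shTNC. The groups overlapped, and the lowest arrays were shControl replicates 1 and 2. The difference was 0.13 ± 0.10 (95% interval -0.10 to 0.36; limma adjusted p = 0.603). Among 8 matched genes for its ligand, related receptors and the peptidase that cleaves the ligand, 4 were higher and 4 lower with a median of -0.03, and only 5 were above background. The smallest p among them was that of Sctr, the secretin receptor, at -0.24 ± 0.12 (limma adjusted p = 0.428).

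Kit, the tyrosine kinase receptor of stem cell factor, gave values of opposite sign from its 2 probe sets. Probe set 1452514_a_at, the brighter, was measured at 12.64, 12.49 and 12.89 in shControl and 12.77, 12.79 and 12.80 in shTNC, a difference of 0.11 ± 0.11 (limma adjusted p = 0.713). The shTNC arrays lay inside the shControl range. Probe set 1415900_a_at was measured at 12.07, 11.98 and 11.87 in shControl and 11.84, 11.82 and 11.70 in shTNC, a difference of -0.19 ± 0.09 (limma adjusted p = 0.432). Here all 3 shTNC arrays lay below the shControl arrays. The gap between the probe sets was 0.700 ± 0.276 in shControl and 0.997 ± 0.091 in shTNC (SD, n = 3), and the groups overlapped (exact two-sided permutation test, p = 0.3, where 0.1 is the smallest p that 3 against 3 arrays allow; 0.45 after Benjamini-Hochberg over 9 pairs of probe sets within a gene). No direction can therefore be given for Kit. The mean of its probe sets gave -0.04.

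Kit is also a defining gene of mast cells, which share the tissue. Of 9 mast cell and basophil markers, 7 were near background, namely Cpa3, Fcer1a, Ms4a2, Mcpt4, Mcpt8, Tpsb2 and Tpsab1. Over all 9 markers, 3 were higher and 6 lower in shTNC, and the mean level was 7.28 to 7.36 in shControl and 7.24 to 7.34 in shTNC. The exceptions above background were Cma1, a mast cell chymase, at -0.25 ± 0.10 (limma adjusted p = 0.366), and Hdc, which makes histamine, at -0.05. Near background, the values ran from -0.30 (Fcer1a) to 0.40 ± 0.14 (Mcpt4, a mast cell protease, higher without overlap, limma adjusted p = 0.301), with Cpa3 and Ms4a2 at 0.05 each. Of 10 matched genes of Kit signalling, 3 were higher and 7 lower, with a median of -0.07 and 0 at an unadjusted p under 0.05. Kitl, the ligand, was measured by 4 probe sets, of which 3 were higher, by 0.06 to 0.12, and 1 was lower, by -0.16 ± 0.08. Shc1, an adaptor that binds activated receptor kinases, had the smallest p of the list at -0.13 ± 0.09 (limma adjusted p = 0.559). Kitl, Hdc and the named markers near background were chosen after their values were seen.

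Cd93 and Clec1a belong to families of membrane proteins with a C-type lectin fold. Cd93 holds ECs to one another and to the matrix, in part by binding multimerin 2. Its brightest probe set, 1419589_at, was measured at 13.75, 13.73 and 13.80 in shControl and 13.82, 13.83 and 13.78 in shTNC, a difference of 0.05 ± 0.08 (95% interval -0.14 to 0.23; limma adjusted p = 0.836). This was the smallest difference among the 7 brightest probe sets, and the groups overlapped.

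The other Cd93 probe sets pointed both ways. Probe set 1456046_at was measured at 13.40, 13.33 and 13.41 in shControl and at 13.60, 13.61 and 13.57 in shTNC, higher by 0.21 ± 0.08 (limma adjusted p = 0.331). Probe set 1449521_at was measured at 13.11, 13.20 and 13.12 in shControl and at 13.05, 12.93 and 12.85 in shTNC, a difference of -0.20 ± 0.09 (limma adjusted p = 0.400). Neither overlapped between groups, so that the same gene stood higher and lower in the same 6 samples. The gap between these probe sets was 0.24 ± 0.09 in shControl and 0.65 ± 0.09 in shTNC (SD, n = 3), a difference of 0.41. An exact two-sided permutation test gave p = 0.1, the smallest possible (0.18 after adjustment over the 9 pairs). That test adds no support, because the separation of the gap follows from that of both probe sets.

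Probe set 1441907_s_at, the next in brightness, was measured at 11.73, 11.43 and 11.54 in shControl and 11.75, 11.74 and 11.73 in shTNC, a difference of 0.17 ± 0.10 (limma adjusted p = 0.495). Its groups were separated by only a narrow margin. The last, 1441908_x_at, was near background at 7.28 ± 0.09 and 7.16 ± 0.05 and is given no weight. Among all 6593 genes with several probe sets above background, 53% had probe sets of both signs, and 232 (3.52%) had, like Cd93, 1 probe set higher and 1 lower without overlap. What the Cd93 probe sets detect along the transcript was not analysed here, and no direction can be given for the gene.

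**Figure D2:**
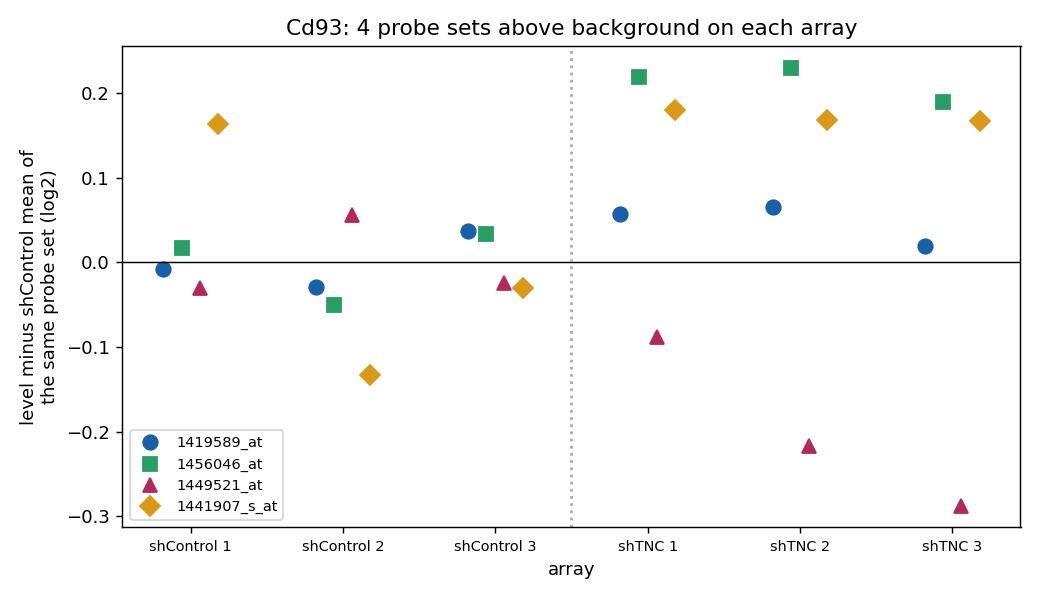
Level of each of the 4 Cd93 probe sets above background on the 6 arrays, minus that probe set's own shControl mean (log2); each point is 1 array and a dotted line parts the groups. In shTNC, 1456046_at and 1441907_s_at lie above their shControl values, 1449521_at lies below, and 1419589_at overlaps.

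Of 7 genes for partners and relatives of Cd93, 4 were higher and 3 lower in shTNC, with a median of 0.03 and 0 at an unadjusted p under 0.05. Msn, which links the Cd93 tail to actin, had the smallest p at 0.12 ± 0.09 (limma adjusted p = 0.612). Mmrn2, multimerin 2, was at -0.04 ± 0.09 by its brightest probe set and at 0.46 ± 0.09 by 1420276_x_at (limma adjusted p = 0.184). Its other probe sets were at 0.15 ± 0.11 and 0.09 ± 0.09, both with overlap. Mmrn2 was named after its values were seen.

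Clec1a, a C-type lectin-like receptor of ECs that binds fungal melanin, had 2 probe sets of the same sign. Probe set 1460039_at gave the smallest p of the 14 member probe sets. It was measured at 12.23, 12.34 and 12.13 in shControl and 12.49, 12.66 and 12.53 in shTNC, and the groups did not overlap. The means were 12.23 ± 0.11 and 12.56 ± 0.09 (SD, n = 3), a difference of 0.33 ± 0.10 or 1.26-fold (95% interval 0.11 to 0.55; limma adjusted p = 0.265). The brighter probe set, 1456318_at, was measured at 12.89, 13.05 and 12.94 in shControl and at 13.07, 13.14 and 13.04 in shTNC, a difference of 0.13 ± 0.09 (limma adjusted p = 0.564), with a narrow overlap. The gap between them went from 0.72 in shControl to 0.52 in shTNC (exact two-sided permutation test, p = 0.1, the smallest possible; 0.18 after adjustment over the 9 pairs).

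Clec1a lies in a chromosomal cluster of lectin-like receptor genes that myeloid cells and platelets use as well. Of 3 matched neighbours in this cluster, 2 were higher and 1 lower. Olr1, a receptor for oxidized LDL, was measured at 7.57, 7.05 and 7.11 in shControl and 7.63, 8.19 and 7.40 in shTNC, close to background, a difference of 0.50 ± 0.22 (limma adjusted p = 0.385). Clec1b, the podoplanin receptor of platelets, was at 0.14 ± 0.21, and 4 platelet markers had a median difference of 0.02, with the smallest p for Itga2b at -0.16. Clec7a, the beta-glucan receptor of myeloid cells, was at -0.19 ± 0.12. Clec1b and Clec7a were named after their values were seen.

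Sema3c is the secreted ligand among the 7 genes, a class 3 semaphorin that signals through neuropilins and plexins. Its brighter probe set, 1429348_at, was measured at 13.46, 13.29 and 13.40 in shControl and 13.54, 13.44 and 13.53 in shTNC. The difference was 0.12 ± 0.09 (95% interval -0.08 to 0.32; limma adjusted p = 0.594). The other, 1420696_at, was measured at 12.74, 12.39 and 12.64 in shControl and 12.71, 12.49 and 12.70 in shTNC, a difference of 0.04 ± 0.12 (limma adjusted p = 0.904). Both overlapped between groups, and in both groups replicate 2 was the lowest array.

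Of 12 genes of the semaphorin axis, 7 were higher and 5 lower, with a median of 0.05, and 10 were above background. Both that were higher at an unadjusted p under 0.05, Sema3d (0.43 ± 0.14, limma adjusted p = 0.298) and Sema3e (0.24 ± 0.09, limma adjusted p = 0.34), were near background. The receptors were not uniform. Nrp1, the neuropilin of ECs, was at -0.05 ± 0.08 by its brightest probe set and 0.29 ± 0.08 by 1448943_at (limma adjusted p = 0.263), and Plxnd1, an endothelial plexin, was at -0.08 ± 0.10. Sema3e, Nrp1 and Plxnd1 were named after their values were seen.

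**Figure D3:**
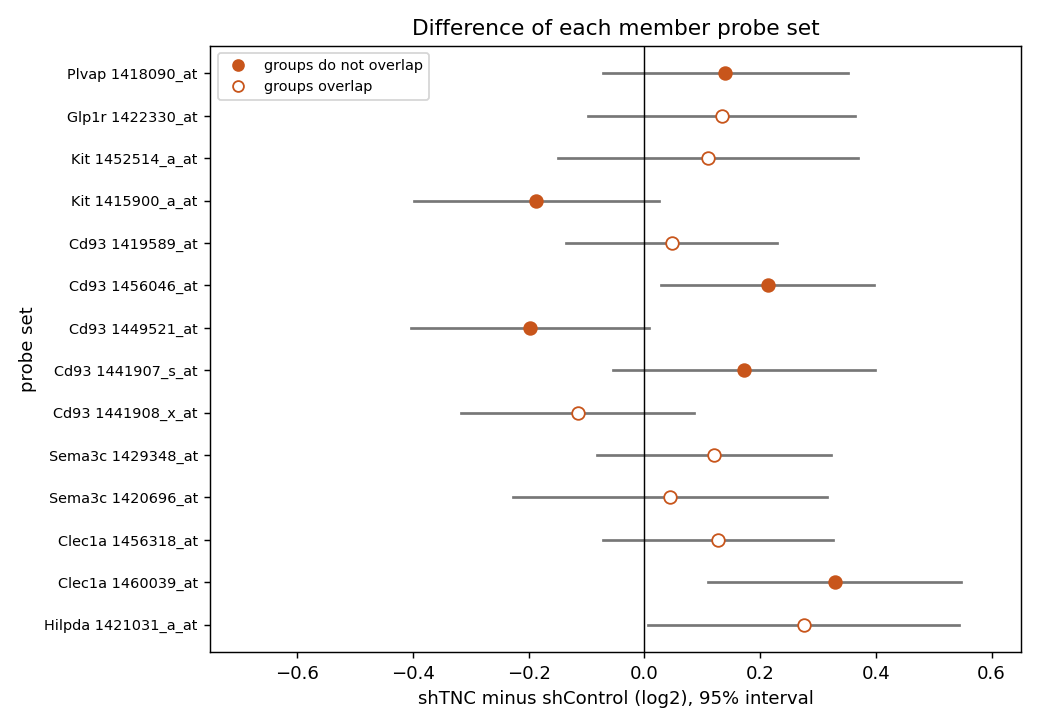
Difference (shTNC minus shControl, log2) of each of the 14 member probe sets with its 95% interval; filled points mark probe sets whose groups do not overlap. 11 points lie above 0 and 3 below, and the intervals of Cd93 1456046_at, Clec1a 1460039_at and Hilpda do not reach 0.

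Hilpda codes for a lipid droplet protein that inhibits the lipase ATGL, and its transcription is raised by hypoxia-inducible factors (HIFs). For this reason, the 250 bases before its second annotated gene start are shown from RefSeq (GRCm38.p6, chr6:29272376-29272625, + strand), with matches to the HIF core words ACGTG and GCGTG in capitals.
Hilpda: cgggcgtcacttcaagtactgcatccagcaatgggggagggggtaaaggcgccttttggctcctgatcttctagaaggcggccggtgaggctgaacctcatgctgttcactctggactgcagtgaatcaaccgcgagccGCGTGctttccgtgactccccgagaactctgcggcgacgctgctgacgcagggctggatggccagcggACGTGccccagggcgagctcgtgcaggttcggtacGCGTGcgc
On either strand, 3 matches were found in this window, at 111, 43 and 8 bases before the start, and 0 in the window of the gene's other start, which overlaps it. Of 32851 windows of this length, 38.6% held at least 1 match and 6.58% at least 3. Windows were found for 4 of the 7 genes, and those of Glp1r, Kit and Sema3c held 1 or 2 matches each. A match is a description of letters and not a binding site.

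Hilpda was measured at 11.93, 12.19 and 11.78 in shControl and at 12.17, 12.30 and 12.26 in shTNC. The groups overlapped narrowly, because shControl replicate 2 lay just above the lowest shTNC array. The means were 11.97 ± 0.21 and 12.25 ± 0.07 (SD, n = 3), a difference of 0.28 ± 0.12 or 1.21-fold (95% interval 0.01 to 0.54; limma adjusted p = 0.377). Without shControl replicate 2, the array that lay apart, the difference was 0.39 and its unadjusted p stayed under 0.05 (limma adjusted p = 0.333). When any of the other 5 arrays was left out (shControl replicate 1 or 3, or shTNC replicate 1, 2 or 3), the unadjusted p was above 0.05, at 0.0587 to 0.147.

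The 16 other genes of HIF response and lipid droplets did not share one direction. 6 were higher and 10 lower in shTNC, with a median of -0.03 and 0 past the adjusted p in limma. Slc2a1, the glucose transporter GLUT1, was measured at 10.829, 11.003 and 10.941 in shControl and 10.652, 10.580 and 10.207 in shTNC, a difference of -0.44 ± 0.13 (limma adjusted p = 0.266), and its other probe sets were lower by -0.35 each, all without overlap. Adm, the vasodilator peptide adrenomedullin, was at -0.55 ± 0.21 (limma adjusted p = 0.335), with overlap. Ldha, a glycolytic HIF target, was at 0.00 ± 0.08. The HIF subunit Hif1a was at -0.09 ± 0.10 by its brightest probe set, at 0.25 ± 0.09 by 1427418_a_at, without overlap (limma adjusted p = 0.321), and at 0.05 and -0.08 by the others. Epas1, the HIF subunit typical of ECs, was at 0.08 ± 0.08 by its brightest probe set and at 0.24 ± 0.08 by 1449888_at, without overlap (limma adjusted p = 0.303). Vegfa, the angiogenic growth factor and HIF target, was at -0.03 ± 0.09 by its brightest probe set and at 0.33 ± 0.13 by 1420909_at, without overlap (limma adjusted p = 0.338). G0s2, like Hilpda an inhibitor of ATGL, was measured at 8.34, 8.17 and 7.96 in shControl and 8.28, 8.58 and 8.61 in shTNC, a difference of 0.33 ± 0.13 (limma adjusted p = 0.348). Hilpda and G0s2 thus stood higher in shTNC, while Slc2a1 and Adm stood lower. Hif1a, Epas1, Vegfa and Ldha were named after their values were seen.

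Over all 14 member probe sets, 13 of them above background, 11 were higher in shTNC and 3 were lower. 3 were higher at an unadjusted p under 0.05 (Clec1a 1460039_at, Cd93 1456046_at and Hilpda) and 0 were lower, beside 6.66% higher and 6.3% lower of all probe sets, and 0 passed the adjusted p in limma. Without overlap between groups, 4 were higher and 2 lower, beside 8.92% and 10.5% of all probe sets. Probe sets of 1 gene are not independent, and the 6 without overlap came from Plvap, Clec1a, Kit and Cd93, with 3 of them from Cd93 alone.

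Replicates of the shControl group were less alike than those of the shTNC group for every member by the brightest probe set. The shControl SD was 0.03 (Cd93) to 0.21 (Hilpda), and the shTNC SD was 0.014 (Plvap) to 0.10 (Glp1r). This was not particular to the members. Over all probe sets, correlations between arrays were 0.9887 to 0.9915 within shControl and 0.9935 to 0.9939 within shTNC. The array that lay apart, shControl replicate 2, was the highest of its group for Plvap, Clec1a and Hilpda and the lowest for Kit, Cd93 and Sema3c. Without it, the difference of Kit was 0.02, against 0.22 without shControl replicate 3, and that of Sema3c was 0.07. Without shControl replicate 1, the difference of Plvap was 0.07, and without shControl replicate 3, that of Glp1r was 0.20. The sign of all 7 held when any 1 array was left out.

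Beside the 7 genes, 8 other markers of general capillary cells were measured by 20 probe sets. By the brightest probe set, 6 were higher and 2 lower, with a median of 0.04. Over the 20 probe sets, 16 were higher and 4 lower, with a median of 0.13, and 0 passed the adjusted p in limma. At an unadjusted p under 0.05, 7 were higher and 0 lower, beside 6.66% and 6.3% of all probe sets. Without overlap, 11 were higher and 1 lower, beside 8.92% and 10.5% of all probe sets. The 7 came from Cxcl12, Aplnr, Cadm1 and Scn7a. Cadm1 pointed both ways, at 0.24 and 0.22 by 1417376_a_at and 1417378_at, higher without overlap, and at -0.15 ± 0.09 by 1417377_at, lower without overlap. Its brightest probe set was at 0.02. Cxcl12, the chemokine ligand of Cxcr4, was higher without overlap by all 3 of its probe sets, at 0.23 ± 0.08 by the brightest (limma adjusted p = 0.303) and 0.51 ± 0.11 by 1448823_at. Aplnr, the apelin receptor, was at -0.02 ± 0.10 by 1423037_at, whereas 1438651_a_at was measured at 12.01, 12.14 and 12.06 in shControl and at 12.51, 12.58 and 12.59 in shTNC, a difference of 0.49 ± 0.08 (limma adjusted p = 0.182). Gpihbp1, which carries lipoprotein lipase to the capillary surface, was at -0.08 ± 0.09. Aplnr, Cadm1, Scn7a and Gpihbp1 were named after their values were seen.

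Aerocyte markers, measured as the neighbouring capillary type, had a median difference of 0.07 over 10 genes, 7 higher and 3 lower. Their 20 probe sets split like those of the other general capillary markers, with 16 higher and 4 lower, at a median of 0.08. At an unadjusted p under 0.05, 2 were higher and 0 lower, beside 6.66% and 6.3% of all probe sets. Without overlap, 8 were higher and 0 lower, beside 8.92% and 10.5% of all probe sets. These 8 came from Clic5, Emp2 and Ednrb alone. Clic5, an intracellular channel protein, had the smallest p at 0.16 ± 0.08 (limma adjusted p = 0.45), and all 4 of its probe sets were higher without overlap. Ednrb was at 0.17 ± 0.09 and Emp2 at 0.14 ± 0.08, without overlap. Apln, the ligand of Aplnr, was at -0.26 ± 0.16 and Fibin at -0.23 ± 0.15. Ednrb, Emp2, Apln and Fibin were named after their values were seen. Of 7 arterial markers, 6 were higher with a median of 0.20, with Gja4, a gap junction protein, at 0.33 ± 0.13 (limma adjusted p = 0.358) and Sox17, an arterial transcription factor, at 0.24 ± 0.09 (limma adjusted p = 0.348). Of 5 venous markers, 4 were higher with a median of 0.05, and Vcam1, a leukocyte adhesion molecule, was at 0.31 ± 0.10 (limma adjusted p = 0.281). Of 6 lymphatic markers, 4 were higher with a median of 0.06, and Lyve1, a hyaluronan receptor, was at 0.10. The 10 pan-endothelial markers had a median of -0.03, with 3 higher and 7 lower, and Emcn, a sialomucin of capillaries and veins, had the smallest p (-0.16 ± 0.09, limma adjusted p = 0.505). The difference between lists was not tested.

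**Figure D4:**
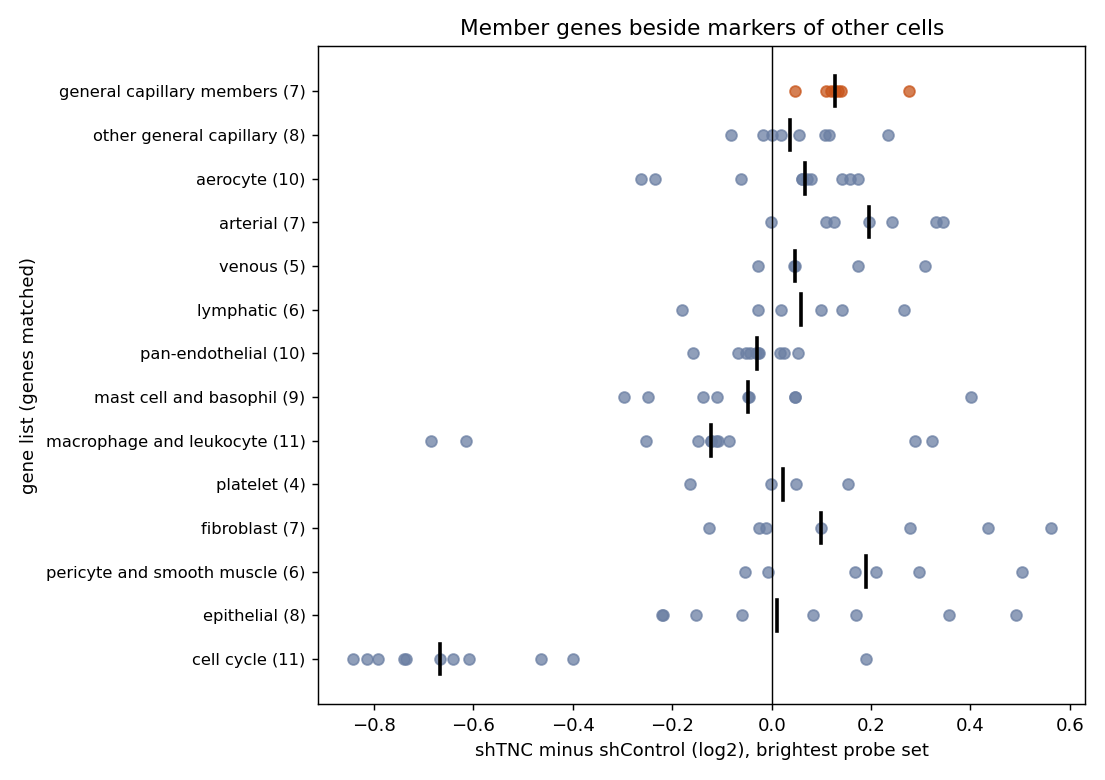
Difference (shTNC minus shControl, log2) of the brightest probe set of each gene for the 7 general capillary members (orange) and 13 lists of markers (blue), with black bars for list medians and the number of genes in brackets. The members lie between 0.05 and 0.28, and 10 of 11 cell cycle genes lie below 0.

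Of the 20 other lists, cell cycle genes had the largest median difference, and 10 of 11 were lower at an unadjusted p under 0.05 and 0 passed the adjusted p in limma. The median difference was -0.67, and the mean level was 10.425 to 10.901 in shControl and 10.003 to 10.107 in shTNC. Rrm2, a ribonucleotide reductase subunit, was at -0.79 ± 0.11 (limma adjusted p = 0.182), Cdk1, the mitotic kinase, at -0.84 ± 0.16, Mki67, a proliferation marker, at -0.64 ± 0.13 and Kif11, a spindle motor, at -0.61 ± 0.09. The array with the highest cell cycle level was shControl replicate 2. The part of this shift in the differences of the general capillary genes was not tested.

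Markers of cells that the sort should have removed are given beside these values, and 0 of them passed the adjusted p in limma. Of 11 macrophage and leukocyte markers, 9 were above background, 9 were lower, and their mean level was 8.77 to 8.83 in shControl and 8.45 to 8.78 in shTNC, with Mrc1, a mannose receptor, at -0.62 ± 0.14 and Chil3, a chitinase-like protein, at -0.69 ± 0.21. Of 6 pericyte and smooth muscle markers, 4 were higher, with a mean level of 9.22 to 9.34 in shControl and 9.40 to 9.59 in shTNC, and Myh11, a smooth muscle myosin, was at 0.50 ± 0.10 and Des, desmin, at 0.30 ± 0.12. For 7 fibroblast markers, 4 of them higher, the mean level was 9.73 to 10.07 and 9.93 to 10.35, with Dcn, a matrix proteoglycan, at 0.43 ± 0.22. For 8 epithelial markers, 4 of them higher, it was 8.45 to 9.36 and 8.38 to 9.60, and Foxj1, of ciliated cells, was near background at -0.22. Among the genes of the sort, Pecam1 (CD31) was at -0.03 ± 0.08, Ptprc (CD45) at 0.32 ± 0.25, Itgam (CD11b) near background at -0.25 ± 0.17, and Epcam at -0.06 ± 0.14. The genes of CD140a and CD140b differed by probe set. Pdgfra (CD140a) was at -0.01 ± 0.25 by the brightest, at -0.47 ± 0.23 by 1421916_at and near background at 0.13 ± 0.18 by 1438946_at. Pdgfrb (CD140b) was at -0.01 ± 0.17 by the brightest, whereas 1436970_a_at was measured at 8.25, 7.81 and 7.63 in shControl and 8.74, 8.48 and 8.81 in shTNC, higher without overlap by 0.78 ± 0.17 (limma adjusted p = 0.203). The part of these markers in the differences of the general capillary genes was not tested.

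For each member, the gene with the most similar profile was sought among the brightest probe sets of 13437 genes above background, by Pearson's r over the 6 arrays. These were Apbb1 for Plvap (r = 0.992, Spearman's rho = 0.943), Suds3 for Glp1r (r = 0.992, rho = 1), Spred1 for Kit (r = 0.993, rho = 1), and U2af2 for Cd93 (r = 0.990, rho = 0.943). They were Gpm6a for Sema3c (r = 0.991, rho = 1), Wwc2 for Clec1a (r = 0.986, rho = 0.943) and Ehd1 for Hilpda (r = 0.993, rho = 1). Between 20 (Glp1r) and 70 (Kit) of the 13437 genes had an r over 0.95 with a member. Each r named is the highest of 13437 values over only 6 arrays, and is only a description. Spred1, an inhibitor of Ras signalling below receptor kinases such as Kit, was at 0.11 ± 0.11, and Gpm6a, a membrane glycoprotein, was measured at 9.52, 8.56 and 9.10 in shControl and 10.06, 9.51 and 9.87 in shTNC.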

How the data were processed

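RNA of sorted mouse lung ECs was labelled with a 3' IVT kit and hybridised to Affymetrix GeneChip mouse genome arrays (6 arrays, 3 per group). The authors normalised the scanner files by robust multiarray average in Chipster and deposited log2 values per probe set, which were used unchanged. Sorted values differed by at most 0.07 between arrays, so a shift shared by all genes would not be visible, and the number of arrays limits the precision. Probe sets were named by the platform annotation (34958 with 1 symbol, 932 with several, 9211 with none). The test was limma's moderated linear model (version 3.58.1, R 4.3.3, two-sided, no covariate, arrays of both groups in the fit), checked on simulated data, with Benjamini-Hochberg adjustment over 45101 probe sets. Intervals are 95%. From each of 20 further lists (171 of 177 entries of all lists matched), the text names the genes above background with an unadjusted p under 0.05, at most 4, or else the gene with the smallest p, plus the genes of the sort and, for each member, the gene most like it. Members and lists were chosen with earlier results of these data known. Alternatives covered normalisation, centring, background filter, variance model, array weights, replicate block, probe set summary and leaving out each array. Promoter windows came from RefSeq tables.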

Additional observations from a re-analysis of the deposited data

How the results depend on the processing

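The median difference of the 7 genes was 0.126 to 0.143 under the alternatives that kept all 6 arrays and 0.0926 to 0.161 when each array was left out in turn. Of the recomputed values, 131 counted as kept, 11 moved and 1 reversed. Those kept include member differences whose unadjusted p in limma crossed 0.05. Examples are Plvap with the intensity trend (0.168 to 0.0373) and Hilpda without shControl replicate 1 (0.0456 to 0.105). With an intensity trend and robust eBayes, 9 probe sets passed the adjusted p, none of a member, and 4 members were higher at an unadjusted p under 0.05 (Plvap, Sema3c, Clec1a and Hilpda), beside 7.25% of all probe sets. With the mean of a gene's probe sets, 1 gene (Rnase1, named after its values were seen) passed, 2 members (Clec1a and Hilpda) were higher at an unadjusted p under 0.05, beside 5.47% higher and 7.49% lower of all 18194 genes, and the difference of Kit turned to -0.0388. This Kit value is the mean of its probe sets, at 0.11 and -0.19. The cause of the other changes was not tested. When each array was left out, 0 to 4 probe sets passed the adjusted p and 0 to 1 members were higher. The 4 passed without shControl replicate 3 (Dbp by 2 probe sets, Hlf and Tef) and 2 passed without shControl replicate 1 (St6gal1 and Trmt13), named after their values were seen. Deviations from the group mean had correlations of -0.113, 0.0384 and 0.144 between same-numbered arrays, and of -0.143 to 0.105 between arrays of different number. With 3 arrays a group, such values cannot show whether the numbers pair the samples, and the labels do not say so. With the replicate block, the median was 0.127, 1 member was higher and 0 probe sets passed. With 3 arrays a group, differences within the members' 95% intervals could not be resolved.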
